A study of Strongylocentrotus purpuratus with 8 samples.

Results

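Actins are the proteins that polymerize into the filaments under the cell membrane, in the cleavage ring and in muscle. Sea urchins carry a small family of actin genes, in which cytoskeletal genes (CyI, CyII and CyIII types) are read in different parts of the embryo and muscle actin later in development. Beta thymosins are small peptides that bind single actin molecules and hold them back from the filament. One gene of the family, CyIIIa of the aboral ectoderm, has been studied as a target of SpRunt-1, which belongs to the Runx transcription factors.

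The targets described here are the 6 actins and the 1 beta thymosin whose names on the array contain thymosin, or actin directly followed by nonmuscle, muscle, cytoskeletal, CyI or 15. They are 7 of 6414 targets, with 14 probes, and all 7 were among the 5481 targets bright enough to be tested. The animals were purple sea urchins, Strongylocentrotus purpuratus, and hatched blastulae were collected 18 hours after fertilization at 15 °C. Zygotes of 4 cultures, each from its own pair of wild, outbred parents, received a morpholino (a synthetic antisense oligonucleotide, in this case one that blocks splicing) against SpRunt-1 by injection, and each culture gave 1 sample of 3600 embryos. The control was untreated, so it does not account for injection itself, and was 1 pool of about 14400 embryos from the same 4 cultures. Each morphant RNA was set against that pool on 2 two-colour arrays with the dyes exchanged, 8 arrays in all, so n = 4 cultures. Because each culture had its own parents while the pool mixed all of them, differences between parents and the effect of the injection cannot be told apart within a culture. RNA came from whole embryos, so fewer cells of a type and less RNA per cell cannot be told apart.

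No target name gives CyIIIa, so that gene is not reported. The array files shorten the names, and 2 targets read only ACTIN CYTOSKELE, here told apart by the codes P53472 and P53474 that precede the name. Another 2 read Actin nonmuscle, told apart as Tig308 and Tig108. Of the 7 targets 1, CyI, matched a symbol in the RefSeq table of assembly Spur_5.0. Actin genes are alike in their coding sequence, and the probe sequences were not used here. Whether a probe also binds the RNA of another actin gene was not tested.

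The median spot gave a Cy3 signal of 66.4 to 86.6 and a Cy5 signal of 59.9 to 95.5, its local background was 44 to 51, and 19 to 81 probes per array were saturated in at least 1 channel. A ratio is given as log2 of morphant over control, the mean of the 2 arrays of each culture, and was tested against 0 with limma over all 5481 genes. The median gene had a ratio of −0.02 and an SD between cultures of 0.239. Marker lists moved in both directions. Of 8 tested targets of the hatched blastula list 5 had means above 0 and 3 below, and 1 passed, where 5.00% of all genes did. That 1 was a target named SPAN protein, a protease of the blastula (2.01 ± 0.68, SD, n = 4, limma adjusted p = 0.0416, and 1.37 on its other probe). The other targets with SPAN in their names had means of −0.0038 to 1.29 and did not pass. The target 50 kDa hatching en had −0.72 (limma adjusted p = 0.120). No target matched the muscle list, and 0 of 2 tested skeletogenic targets passed, both with means below 0. SPICULE MATRIX PROT had −0.83 ± 0.39 (limma adjusted p = 0.0574). Its other, dimmer probe gave −1.46, and with that probe it passed (limma adjusted p = 0.0202). PARTIAL MSP130 had −0.76 ± 0.79 (limma adjusted p = 0.165) and 0.25 on its other probe. Of 16 targets of the aboral ectoderm list 7 had means above 0 and 9 below, and 1 passed, ARYLSULFATASE B (−1.51 ± 0.51, limma adjusted p = 0.0430). All 16 entered the list by arylsulfatase in their names, and whether each marks that ectoderm was not tested. The part of these cell types in the actin values was not tested.

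Of the actin targets 2 were higher in the morphants, and the thymosin was lower. These 3 of 7 targets passed limma's adjusted p under 0.05, against 5.00% of all tested genes. Of all genes 2.96% were higher and 2.04% lower. Counted by probe, 6 of the 13 kept probes passed, 5 higher and 1 lower, against 5.32% of all kept probes. A further 2 actins, IIB and P53472, were higher in every culture by over 2-fold on average and missed the threshold, and the remaining 2, Tig108 and CyI, had mean ratios below 0 and did not pass. After normalization 6 of the 7 targets had 1 sign in all 4 cultures (44.3% of all genes). Before it Tig108 and THYMOSIN BETA 31 did not. In all, 4 of 7 were at least 2-fold apart in either direction (5.49% of all genes). The median ratio of the 7 targets was 0.54, and 6 of them had an unadjusted p under 0.05 (35.3% of all genes).

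**Figure D1:**
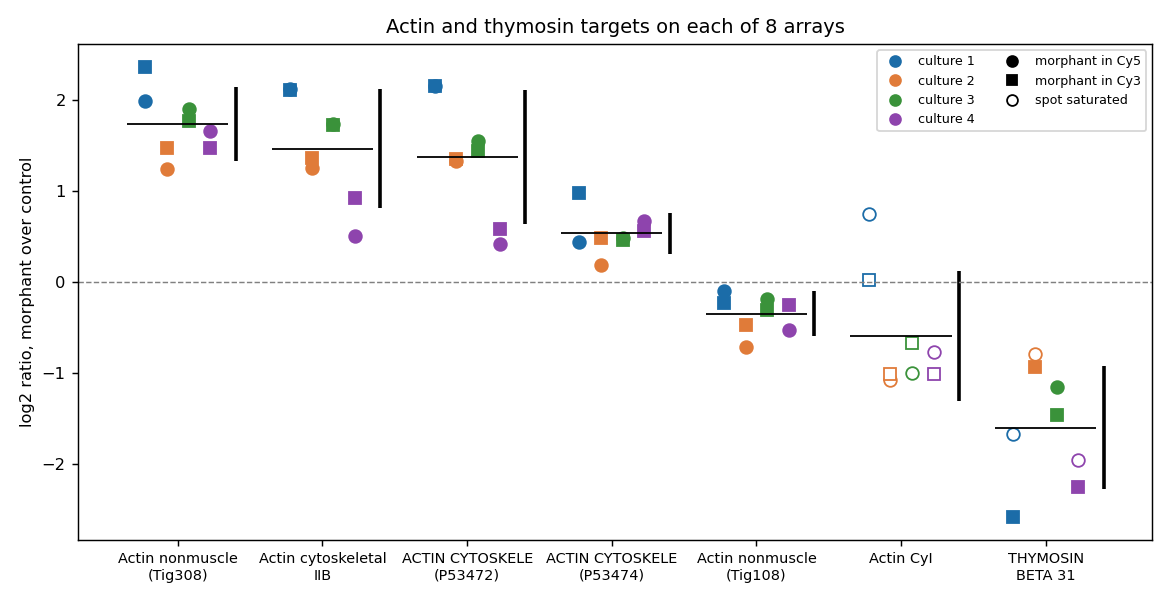
Log2 ratio of morphant over control (vertical axis) of the 7 targets on each of the 8 arrays, by culture (colour) and dye of the morphant (circle or square). Horizontal bars are means of the 4 cultures, vertical bars their 95% confidence intervals, and open points are spots saturated in at least 1 channel, which are all 8 spots of Actin CyI and 3 of THYMOSIN BETA 31.

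The actin with the largest rise was the target Actin nonmuscle Tig308 (probe CUST_10217). Its ratios in cultures 1 to 4 were 2.18, 1.36, 1.84 and 1.57. All 4 cultures and all 8 arrays lay above 0, culture 1 highest and culture 2 lowest. The mean was 1.74 ± 0.36 (SD, n = 4), or 3.33-fold, with a 95% confidence interval of 1.33 to 2.14 on the log2 scale and a limma adjusted p of 0.0253. It had rank 16 from the highest among the 5481 tested genes. Spot signals were 1809 to 4058 for the morphants and 385 to 630 for the control, so that the groups did not overlap before any normalization. How many of all genes had groups apart in this way was not counted. Before normalization the median tested gene had ratios of 0.04, 0.50, 0.48 and 0.32 in cultures 1 to 4. The second probe of Tig308 (CUST_10218) gave 2.26, 1.40, 1.84 and 1.56, a mean of 1.76 ± 0.38 and a limma adjusted p of 0.0223 among all 9563 kept probes. The rise missed the threshold without culture 2, 3 or 4 (limma adjusted p = 0.0870, 0.125 and 0.0910), where limma's count over all genes was 1, 0 and 0.

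Actin cytoskeletal IIB (probe CUST_12092), a cytoskeletal actin by its name, had ratios of 2.12, 1.31, 1.73 and 0.72. Every culture lay above 0, with culture 1 highest and culture 4 lowest. The mean was 1.47 ± 0.60 (SD, n = 4), or 2.77-fold (interval 1.76 to 4.36). Its limma adjusted p was 0.0501, just short of the threshold. The second probe (CUST_12091) ordered the cultures differently, at 1.42, 1.84, 2.22 and 1.16, with culture 3 highest. Its mean of 1.66 ± 0.47 passed among all probes (limma adjusted p = 0.0314), and the first probe did so there as well (0.0491). The target passed under 11 of 17 other settings, so its side of the threshold is not settled, while its ratio stayed between 1.25 and 2.01.

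ACTIN CYTOSKELE P53472 (probe CUST_6312) had ratios of 2.16, 1.34, 1.50 and 0.50. Cultures 1 to 3 were well above 0 and culture 4 was much lower, the same order as on the first IIB probe. Signals were 10137 to 26467 for the morphants against 3584 to 5406 for the control, without overlap, which was not counted over all genes. The mean was 1.37 ± 0.68 (SD, n = 4), or 2.59-fold (interval 1.56 to 4.33), with a limma adjusted p of 0.0576. The second probe (CUST_6311) gave 2.05, 1.10, 1.50 and 0.44, a mean of 1.27 ± 0.68, and also missed the threshold (0.0639 among all probes). The ratio was 1.11 to 1.88 over 17 other settings, and the target passed under 7 of them.

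ACTIN CYTOSKELE P53474 (probe CUST_12132) showed the smaller rise that passed. Its ratios were 0.71, 0.34, 0.48 and 0.62, all above 0 and close together. The mean was 0.54 ± 0.16 (SD, n = 4), or 1.45-fold, with an interval of 0.31 to 0.76 and a limma adjusted p of 0.0458. The second probe (CUST_12131) gave 0.85, 0.33, 0.29 and 0.51, a mean of 0.50 ± 0.25, and did not pass among all probes (limma adjusted p = 0.0691). This call is fragile, since it held under only 6 of 17 other settings, and the ratio was 1.10 with median centring, where it missed the threshold (limma adjusted p = 0.0646). It missed it without culture 2, 3 or 4 as well (limma adjusted p = 0.0927, 0.142 and 0.138).

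The remaining target named Actin nonmuscle, Tig108 (probe CUST_7747), was dim, with signals of 79 to 148. Its ratios were −0.16, −0.60, −0.25 and −0.39, below 0 in all 4 cultures after normalization. Before it they were −0.09, 0.01, 0.46 and 0.02, and with median centring culture 3 stood at 0.07. That all 4 cultures lay below 0 thus depends on the intensity curve. The normalized mean was −0.35 ± 0.19 (SD, n = 4), or 0.785 of the control level, and the limma adjusted p was 0.0859. It passed under 0 of 17 other settings. Its size was not stable, at −0.79 with Agilent's log ratio and −0.13 with median centring. The second probe (CUST_7748) was not tested, since morphant RNA rose above background on only 3 arrays and control RNA on 0. The shared name thus covers a target that rose over 3-fold and one that did not pass.

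**Figure D2:**
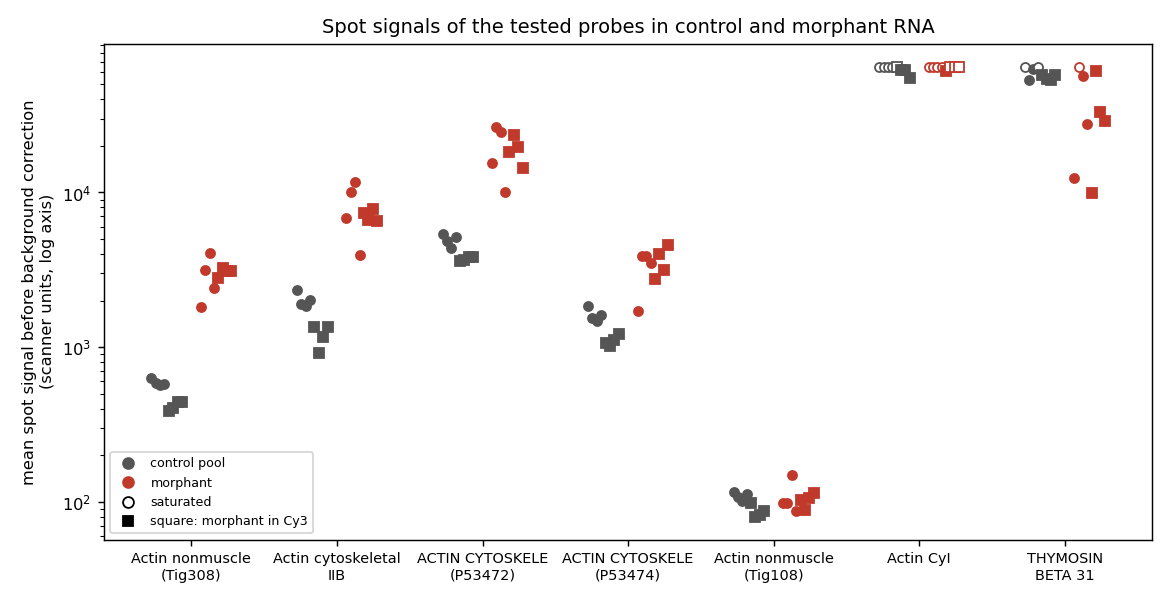
Mean spot signal in scanner units (vertical log axis) of the tested probe of each target in the control pool and in the morphants, 8 arrays each, with saturated spots open. The 2 groups are apart for Tig308, IIB and P53472. They overlap for Tig108 and for P53474, whose morphant low of 1720 is under the control high of 1837. For CyI they pile up at the scanner's ceiling near 65291.5. Signals are not normalized, and the share of all genes with groups apart was not counted.

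Actin CyI (probe CUST_11763), a cytoskeletal actin, could not be measured as a ratio on these arrays. Its spot was saturated in the morphant channel on 7 of 8 arrays and in the control channel on 5 of 8, and on each of the 8 arrays in at least 1 of them. On the 4 arrays where both channels were saturated, all with the morphant in Cy5, the log2 ratio before normalization was −0.0153 to −2.1e-05. After normalization the same 4 spots read 0.75, −1.08, −0.998 and −0.76. The normalized values of these spots therefore came from the intensity curve fitted to each array. The culture ratios were 0.38, −1.05, −0.83 and −0.89, a mean of −0.60 ± 0.66 (SD, n = 4) with an interval of −1.31 to 0.12 and a limma adjusted p of 0.186. The second probe (CUST_11764) repeated them almost exactly, at 0.37, −1.05, −0.84 and −0.89, and was as close to the ceiling. No direction can be read for CyI, also not from the fit without culture 1, where it passed at −0.92 (limma adjusted p = 0.0335), and no value remains without saturated spots.

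THYMOSIN BETA 31 (probe CUST_5749), the 1 peptide that binds actin monomers in this set, had the opposite sign to the actins that rose. Its ratios were −2.13, −0.86, −1.31 and −2.11. All 4 cultures lay below 0, cultures 1 and 4 far lower than culture 2. The mean was −1.60 ± 0.62 (SD, n = 4), or 0.329 of the control level, with an interval of −2.28 to −0.92 and a limma adjusted p of 0.0458. It had rank 25 from the lowest among the tested genes. The second probe (CUST_5750) gave −2.25, −0.67, −1.43 and −2.24, a mean of −1.65 ± 0.76, and narrowly missed the threshold among all probes (limma adjusted p = 0.0545).

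The signal of this target lay close to the ceiling in the control, at 53122 to 65292, and was saturated there on 2 of 8 arrays. In the morphants it ran from 9861 to 65258 and was saturated on 1 array, so the groups overlapped in raw signal. Before normalization the ratio of culture 2 was above 0, at 0.23, while those of cultures 1, 3 and 4 were −2.47, −0.42 and −1.11. With each array centred on its median, culture 2 stood at −0.05 on the tested probe and 0.16 on the other, so the fall in culture 2 depends on the intensity curve. The mean was −1.15 with that scaling (limma adjusted p = 0.180) and −1.77 without saturated spots (limma adjusted p = 0.0531). The call was also lost without the filter on dim probes (0.0550), with the dimmer probe (0.0584) and without culture 1, 2, 3 or 4 (0.0506, 0.0883, 0.138 and 0.135). The direction of the mean was below 0 under all 17 other settings and the call held under 9.

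**Figure D3:**
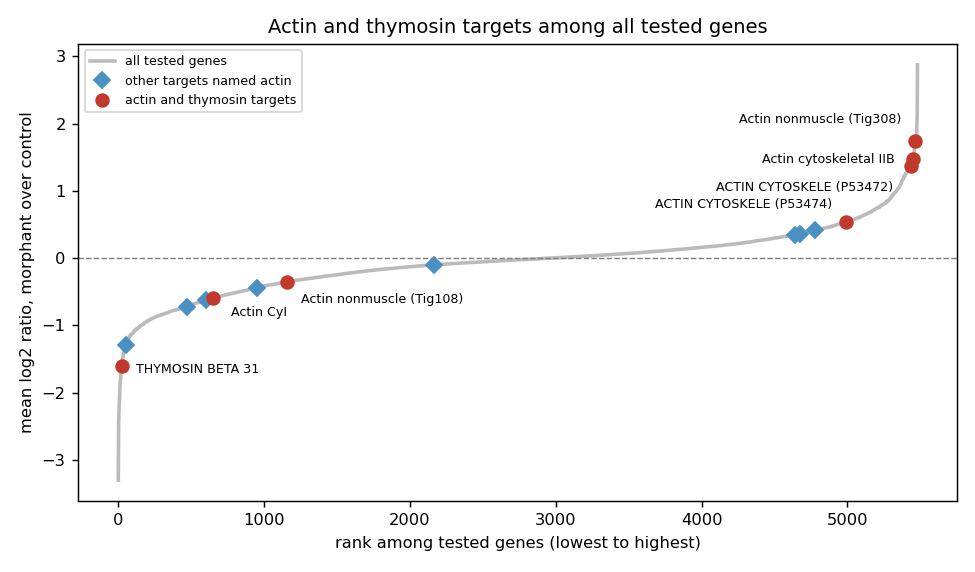
Mean log2 ratio of morphant over control (vertical axis) of all 5481 tested genes in rank order, with the 7 targets in red and the 8 tested other targets named actin in blue. Tig308, IIB and P53472 stand at the upper end and THYMOSIN BETA 31 at the lower end.

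How far the intensity curve moved the targets was read by setting the normalized ratio against the ratio before normalization. In culture 1 the tested probes of the 6 targets other than the dim Tig108 moved by −0.00276 to 0.43, and in culture 2 by −1.37 to −1.09. Tig108 moved by −0.07 and −0.61. Before normalization the mean ratios were 2.55 for Tig308, 2.23 for IIB, 2.09 for P53472 and 1.31 for P53474. These 4 actins were thus above 0 both before and after the curve, in each culture. Median centring gave 2.31, 2.01, 1.88 and 1.10 for them and moved the median of all genes from −0.02 to 0.10. The order of the cultures changed with it: on Tig308 culture 1 was highest with the curve and lowest with centring (2.12, 2.41, 2.52 and 2.19).

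**Figure D4:**
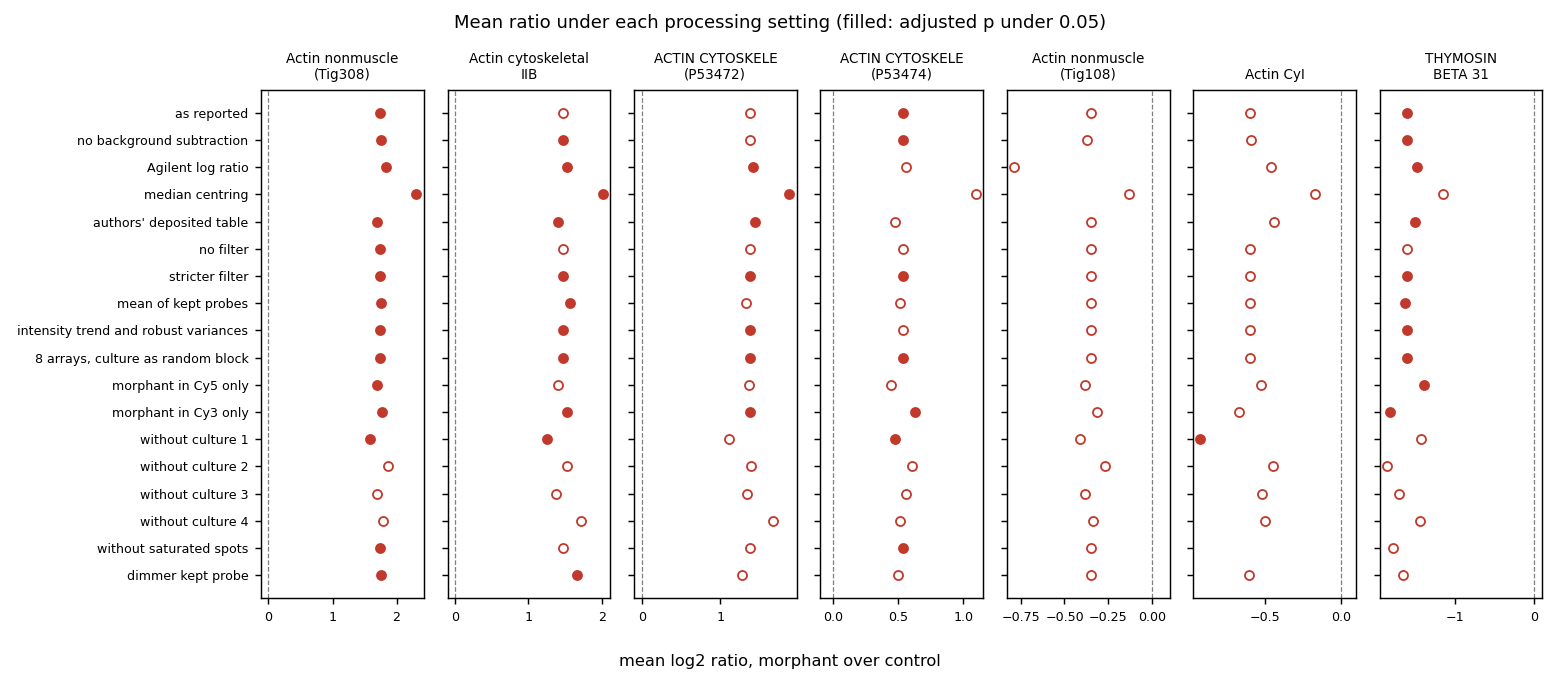
Mean log2 ratio of morphant over control (horizontal axis, scaled separately in each panel) of the 7 targets as reported and under each other setting (rows), filled where limma's adjusted p was under 0.05. Tig308 is filled under 14 of 17 other settings and P53474 under 6. The points of Actin CyI rest on saturated spots.

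The ratios differed between cultures beyond the spread of the 2 arrays of the same RNA for 5 of the 7 targets (limma F test with a term for the dye, adjusted p under 0.05), against 61.5% of all genes. The F test's adjusted p was 0.00211 for Tig308, 1.44e-05 for IIB, 1.95e-06 for P53472, 7.65e-05 for THYMOSIN BETA 31 and 0.000250 for CyI, the last on saturated spots. It was 0.178 for P53474 and 0.0547 for Tig108. The error in this test is technical, since both arrays of a culture hold 1 RNA. Without saturated spots CyI and THYMOSIN BETA 31 had too few spots, and 3 targets passed. With median centring 3 passed.

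Across the 4 cultures P53472 and IIB had the most alike ratios of all pairs of targets, with a root mean square difference of 0.161. Tig308 differed from IIB by 0.430 and from P53472 by 0.560, and THYMOSIN BETA 31 was farthest from Tig308, at 3.43. Among 5474 genes outside the set, those with ratios most like Tig308 were ATP SYNTHASE BE (root mean square difference 0.130), SIMILAR TO GLUTATHI (0.180) and a Ubiquitin precursor (0.204), each over 4 cultures that share 1 control pool.

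Another 10 targets carry actin in their names in a form outside the rule, and 8 were tested. None passed limma's test (3 of 8 had an unadjusted p under 0.05, against 35.3% of all genes), and their median ratio was −0.27. Actin, muscle 2/4/ (probe CUST_7285), a muscle type by its name, had 0.37, −1.50, −0.85 and −0.89, a mean of −0.72 ± 0.78 (limma adjusted p = 0.181). A target cut to Actin, cytoskelet (CUST_10353) had −0.07, −1.24, −0.61 and −0.57, a mean of −0.62 ± 0.48 (limma adjusted p = 0.113). Both had ratios near 0 before normalization, with means of 0.05 and 0.15. Actin-1 had 0.41 ± 0.22 (limma adjusted p = 0.0798), and 0.10 ± 0.17 on its other kept probe (limma adjusted p = 0.465 among all probes). The target 9Y701 ACTIN (CUST_6140) was the most uneven, at −1.66, −3.42, 0.84 and −0.89, with morphant signals of 52.4 to 1470. Its mean of −1.28 ± 1.77 did not pass (limma adjusted p = 0.254), while the cultures differed (limma F test, adjusted p = 1.49e-07), and its second probe was not kept.

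The proteins that act on actin were described from a list of 106 targets found by name, 88 of them tested. Of these 2 rose and none fell (2.27% against 5.00% of all genes), and 30 had an unadjusted p under 0.05. The median ratio was −0.10. Alpha actinin 1, which links actin filaments side by side, had ratios of 0.90, 0.87, 0.57 and 0.82 and rose 1.73-fold (0.79 ± 0.15, limma adjusted p = 0.0273; 0.56 on its other probe). Sp-Rac, a small GTPase that drives the assembly of actin at the cell edge, had 0.68, 1.16, 0.92 and 1.13 and rose 1.96-fold (0.97 ± 0.22, limma adjusted p = 0.0276; 1.03 on its other probe). Both were above 0 in every culture, and both missed the threshold without culture 2, 3 or 4. With median centring they stood at 1.29 and 1.49 and missed it as well (limma adjusted p = 0.0564 and 0.0836).

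Of the 4 tested targets listed by name as binding actin monomers (single actin molecules), 0 passed. They include a target named ACTIN DEPOLYMER, and whether each binds actin only outside the filament was not tested. Profilin (SpCo had −0.31 ± 0.10 (limma adjusted p = 0.0648), and 0.17 with median centring. The target PROFILIN had 0.30 ± 0.15 (limma adjusted p = 0.0859), so the 2 profilins had opposite signs. Of 11 nucleation targets, which start new filaments, 0 passed, and SEA URCHIN ARP3, a subunit of the complex that branches filaments, had 0.62 ± 0.26 (limma adjusted p = 0.0544) and 0.27 on its other probe. All 6 severing and capping targets had means below 0 on their tested probes, as did 53.8% of all genes, and 0 passed. The other kept probe lay above 0 for Coronin-1A (0.15, against −0.82 on the tested probe) and VILLIN (0.04, against −0.35). It lay below 0 for Gelsolin (−0.25), Severin (−0.20) and a Coronin-7 target (−0.23). That Coronin-7 target was the most even of the 6, at −0.23 ± 0.03 on its tested probe (limma adjusted p = 0.0735).

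Of 13 bundling and crosslinking targets 1 passed, Alpha actinin 1. Of 22 membrane linkage targets, 15 of them with ankyrin in their names, 0 passed, and Ezrin radixin moesin, which ties filaments to the membrane, had 0.74 ± 0.29 (limma adjusted p = 0.0521). Of 19 myosin targets, which include 3 tropomyosins taken in by their names, 0 passed, and Myosin-VII, a motor that moves along actin, had −1.18 ± 0.57 (limma adjusted p = 0.0569), and its other probe gave −0.48. Of 5 thin filament targets 0 passed, and Tropomyosin-1, which lies along the filament, had −0.65 ± 0.44 (limma adjusted p = 0.0954). Serum response fac, a transcription factor that controls actin genes in vertebrates, had −0.04 ± 0.11 (limma adjusted p = 0.715).

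**Figure D5:**
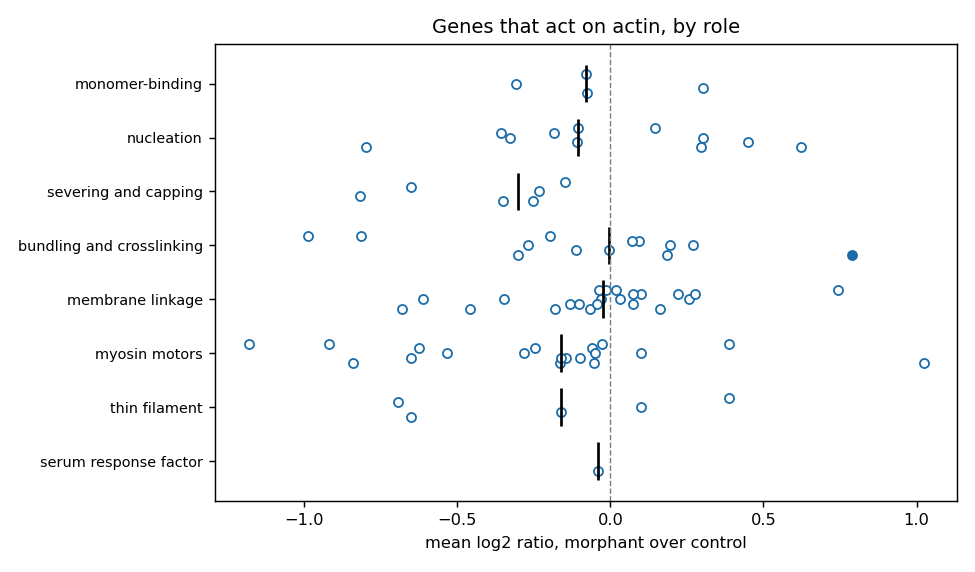
Mean log2 ratio of morphant over control (horizontal axis) of tested targets that act on actin, by 8 roles, each point 1 target and each bar the median of the role. The 1 filled point, Alpha actinin 1, passed limma's adjusted p under 0.05. The 6 severing and capping targets lie below 0 on their tested probes, as do 53.8% of all genes. The other kept probes of Coronin-1A and VILLIN, not drawn, lie above 0.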

How the data were processed

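The authors' scanner files come from Agilent Feature Extraction, in version 10.7.1.1 by the submitters' processing notes. Each spot has, per the file headers, an intensity for its signal and one for its surrounding background in either channel. They also hold the software's log10 ratio of Cy5 over Cy3, per the file headers. The authors' deposited table holds log2 ratios, whose making is not given in the sources used here; it correlated at 0.971 to 0.993 with loess ratios of unsubtracted signals.

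In R 4.3.3 with limma 3.58.1, signals were corrected with normexp (offset 50) followed by a loess fit per array that gave 536 control spots weight 0. Outlier spots, 0 to 32 on an array, were dropped, and the 2 dye-swapped arrays of a culture were averaged. Kept probes were called well above background by the scanner software on at least 4 of 8 arrays, in 1 channel or both. The brightest kept probe stood for a target. lmFit and eBayes tested the mean against 0, with Benjamini-Hochberg adjustment over 5481 genes (threshold 0.05). The control was 1 pool, so its own spread is left out.

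Every target of the set was named, with, per role, up to 3 passing genes of smallest p (or the 1 of smallest p), and the 3 genes most like the target of smallest p. PROFILIN and the named targets outside the rule were added after their values were seen. The targets and lists were chosen with earlier results of these data known. A further role among the genes that act on actin is not reported on its own here. Scripts were tested on simulated data.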

Additional observations from a re-analysis of the deposited data

Results flagged for a closer look

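Actin CyI had 1 culture far from the others, the only target of the set with such a culture among 13 probes screened. Culture 1 stood at 0.38 and cultures 2, 3 and 4 between −1.05 and −0.83 on probe CUST_11763, so that the gap from culture 1 to the nearest culture made up 0.851 of the whole range. On probe CUST_11764 it made up 0.848. Both exceed the 95% limit for 4 values, which chance alone passes in about 1 of 20 groups, and the 2 probes share RNA and array. Each spot of both probes was saturated in at least 1 channel. Before normalization the ratios of cultures 1 to 4 on the first probe were −0.05, 0.04, 0.03 and 0.13, and the intensity curve moved them by 0.43, −1.09, −0.87 and −1.01. The distance of culture 1 is thus that of the curve.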

How the results depend on the processing

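Leaving CyI aside, whose sign is set by saturated spots, none of the other 6 targets turned its sign under a setting that measured it, but 3 calls of 7 is not a firm count. It was 1 without the filter on dim probes, 5 with a stricter filter, 5 with the 8 arrays and culture as a random block, 5 with the morphant in Cy3 only, 2 with it in Cy5 only (1 higher, 1 lower) and 6 at a threshold of 0.1. Leaving out a culture gave 0 to 4 targets, 0 to 5 probes (6 with all cultures) and 0 to 887 genes (355 higher, 532 lower without culture 1). The 0 came without culture 2, 3 or 4, when limma still gave 6, 6 and 5 targets an unadjusted p under 0.05. At 0.1, 11 probes passed. Without saturated spots and with the dimmer probe, both chosen after seeing the data, 2 targets passed.

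The count of all genes (274; 162 higher, 112 lower) was 839 with Agilent's log ratio, 56 with median centring (49 higher, 7 lower), 581 with the authors' table, 180 without a filter, 448 with a stricter one, 709 with robust variances and a trend over mean intensity, 1444 with the random block and 1224 at 0.1. A trend over the mean ratio instead, chosen after seeing the data, gave 0 genes and 0 targets in limma (2045 and 6 unadjusted), so that count depends on what the trend is fitted to. The targets that act on actin (2 passing, both higher) gave 12 with Agilent's log ratio (6 higher, 6 lower), 0 with median centring (20 unadjusted), 5 with the authors' table (2 higher, 3 lower), 6 with the stricter filter, 5 with the mean of kept probes, 7 with the trend, 22 with the block (9 higher, 13 lower), 4 with the morphant in Cy3 only, 19 at 0.1 (6 higher, 13 lower), 5 with the dimmer probe (2 higher, 3 lower) and 0 to 17 without a culture (4 higher, 13 lower without culture 1). Between cultures 3 targets differed (5 as reported) with median centring and 3 without saturated spots. Profilin (SpCo turned to 0.17 with median centring and Serum response fac to 0.0128 with the morphant in Cy3 only. No paired analysis was possible because every culture was set against 1 pool. Saturation limits CyI and THYMOSIN BETA 31, and 4 cultures limit the precision.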
